A study of Mus musculus with 4 samples.

Results

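Methylation differences were described at 9 complement genes of microglia, out of 21938 protein-coding genes of the annotation: C1qa, C1qb, C1qc, C3, C4b, C3ar1, C5ar1, Itgam and Itgb2. The genes were chosen by name, with earlier results of these data known. Each was given every position and region of the deposited lists that lay inside it or within 10000 bp of it. A gene with no entry there counts as having no listed difference. The cells were sorted microglia of untreated C57BL/6J mice 3 months of age, labelled WT in 2 samples and IRF8KO in 2 samples, the latter lacking IRF8, a transcription factor of myeloid cells. The labels do not name the deletion allele, nor say whether a sample came from 1 mouse or from several, or whether replicates were separate animals. DNA methylation was read by whole-genome bisulfite sequencing, in which unmethylated cytosines are converted and methylated ones are not. The lists compare the genotypes, but their headers number the groups without naming them, so differences are given as the first minus the second group, on a scale of methylation levels from 0 to 1, and neither group is assigned to a genotype. They hold neither read depths nor expression values, so that the coverage behind a value is unknown and the labelled cell type could not be checked on its markers.

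Complement is a cascade of proteins that tags targets for removal. The recognition molecule C1q is built from the chains encoded by C1qa, C1qb and C1qc, and in the brain microglia are its main source. C1q binding leads to cleavage of C4 and then of C3, whose fragments coat the target. Fragments released from C3 and C5 act on the receptors encoded by C3ar1 and C5ar1, and Itgam and Itgb2 encode the chains of complement receptor 3 (CD11b and CD18), with which microglia take up material tagged by C3. In developing brain this route is known for the removal of synapses.

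The largest blocks of differing methylation lay at the C1q genes, at the start of C3 and upstream of C3ar1, and sequences from these places are printed here, since 5 deposited regions fell within 10000 bp of a member and all 5 were in these 3 places. They were read from the GRCm38 reference (RefSeq assembly) on the minus strand, from which all of these genes are transcribed, and the cytosine and guanine of each CpG are in capitals. Of the C1qb region the central 300 of 441 bases are shown, and for C3 the 250 bases before the annotated gene start, because the region itself runs into the untranslated first exon.
C1qb intron, chr4:136883866-136884165: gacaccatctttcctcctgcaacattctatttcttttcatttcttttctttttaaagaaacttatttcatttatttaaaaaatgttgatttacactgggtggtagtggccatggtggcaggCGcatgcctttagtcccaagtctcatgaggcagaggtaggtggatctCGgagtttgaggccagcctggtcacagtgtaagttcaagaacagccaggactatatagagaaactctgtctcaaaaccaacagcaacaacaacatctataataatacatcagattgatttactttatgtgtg
Past the 3′ end of C1qc, chr4:136889239-136889437: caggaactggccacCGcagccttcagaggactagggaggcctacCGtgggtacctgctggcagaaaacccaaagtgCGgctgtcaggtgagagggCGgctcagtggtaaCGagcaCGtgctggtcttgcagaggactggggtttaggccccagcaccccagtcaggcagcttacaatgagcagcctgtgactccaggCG
Upstream of C3ar1, chr6:122863303-122863453: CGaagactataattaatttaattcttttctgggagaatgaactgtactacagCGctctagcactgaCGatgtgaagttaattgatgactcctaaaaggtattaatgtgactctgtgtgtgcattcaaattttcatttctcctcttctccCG
Upstream of C3, chr17:57228137-57228386: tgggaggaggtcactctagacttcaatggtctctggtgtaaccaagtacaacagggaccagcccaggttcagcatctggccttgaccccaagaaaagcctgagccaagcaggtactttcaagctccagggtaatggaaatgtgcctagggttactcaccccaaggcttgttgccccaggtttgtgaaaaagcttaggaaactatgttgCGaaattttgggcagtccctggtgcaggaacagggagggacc
The stretch in the C1qb intron held 2 CpGs in 300 bases, and that past C1qc held 7 in 199. The C3ar1 stretch held 4 CpGs in 151 bases and the C3 stretch 1 in 250. The C3 stretch covers only part of its region, which itself held 2 whole CpGs in 87 bases. The C1qb region was 84.6% repeat-masked in the reference, that past C1qc 16.6%, that of C3ar1 33.1% and that of C3 0%, against a median of 7.94% over all 3389 deposited regions.

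All 9 genes had at least 1 listed position, where a listed position is one that the authors' table holds, with a posterior probability of at least 0.95. By its header this is the probability that the difference exceeds a set size, which the header does not give. The smallest absolute difference listed was 0.126, so that a position with a smaller difference may be unlisted. Over all protein-coding genes the share with a listed position was 64.1%. With positions on a CpG of the reference only, 7 of the 9 genes had one, without C4b and C5ar1. No share over all genes is given for that setting. A position with a false discovery rate (FDR) under 0.05, the threshold used throughout, was present at 7 genes, against 30.8% of all genes. The exceptions were C4b and C5ar1, with 1 listed position each. A deposited region, a run of cytosines called together by the authors, was present at 5 genes, namely C1qa, C1qb, C1qc, C3 and C3ar1, against 9.19% of all genes. The C1q genes lie side by side and share their entries, so that the 5 genes stand for 3 places in the genome. Likewise the 7 genes with a position past the threshold stand for 5 places. The median member had 15 listed positions and the median protein-coding gene 2. With the shared C1q positions counted once, the median over the 7 separate places was 6. The members were shorter (median 12798 bp against 17425 bp). C1qa, C1qb, C1qc and C3ar1 were at or above 21 listed positions, the 90th percentile of all genes. Because the genes were chosen with earlier results of these data known, these shares cannot show an excess over all genes. No such excess was tested.

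Each of the 7 places went in a single direction. The 70 listed positions at C1qa, C1qb and C1qc were lower in the first group, as were the single position at C4b and both positions at Itgam. All 15 positions at C3, the 22 at C3ar1, the 6 at Itgb2 and the 1 at C5ar1 were higher in the first group. Of the 5 places with more than 1 listed position none was mixed, and over all genes with at least 2 listed positions 51.3% had a single direction. Neighbouring positions often shared a deposited difference, so that they do not give separate directions. The 2 positions at Itgam shared 1 difference, and the 22 at C3ar1 lay within 426 bp. The comparison with 51.3% therefore cannot show a trait of these genes. Counted over members, 3 had a region lower in the first group (4.69% of all genes) and 2 a region higher (5.17%). A position past the threshold and lower was present at C1qa, C1qb, C1qc and Itgam, against 16.4% of all genes, and one that was higher at C3, C3ar1 and Itgb2, against 20.5%. In the counts of lower regions and lower positions, the 3 C1q genes are 1 place.

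**Figure D1:**
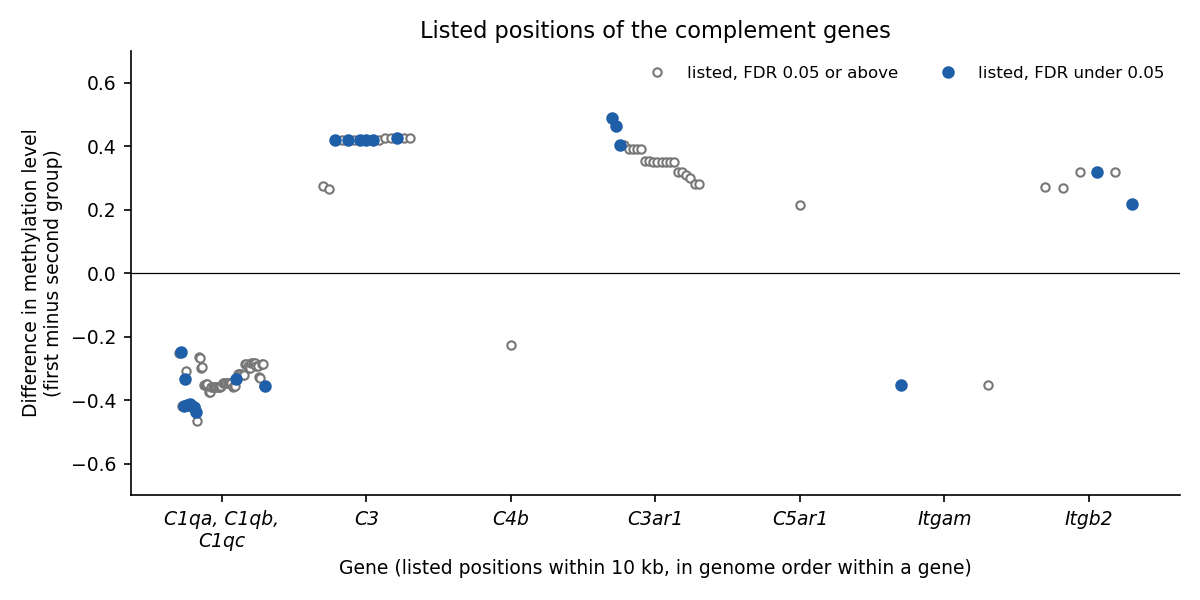
Deposited difference in methylation level (first minus second group, y axis) of each of the 117 listed positions within 10 kb of a complement gene, by gene (x axis), with positions in genome order within a gene. Filled points have an FDR under 0.05; the C1q genes, C4b and Itgam lie below 0, and C3, C3ar1, C5ar1 and Itgb2 above.

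Together the windows held 117 listed positions in 15 clusters of positions within 500 bp of each other. Of the positions 44 (37.6%) were higher in the first group, against 61.9% of all listed positions. The C1q genes alone held 70 of the 73 that were lower. Counted by clusters, 46.7% were higher. The threshold was passed by 21 of the 117 (17.9%), against 18.7% of all listed positions, 11 of them higher and 10 lower. The median absolute difference in the authors' deposited table was 0.348 with a median standard error of 0.101, close to the medians of 0.329 and 0.103 over all listed positions. The positions were not independent. The 117 positions carried 60 distinct differences, and of 43 pairs of positions 1 bp apart, 41 had the same difference. In 10 of the 43 pairs 1 position passed the threshold and its neighbour did not. Of the 117, 95 (81.2%) lay on a CpG of the reference, against 78.0% of all listed positions. The other 22 did not, and 7 of the 21 past the threshold were among them. No share over all positions past the threshold is given for this.

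Set against the positions tested, the members differed widely. In the window over the C1q genes about 1313 positions had been tested, if the row numbers of the table count tested positions, and 5.33% of them were listed, against 0.63% over the genome. At C3ar1 the share was 2.51% of about 875 and at C3 1.19% of about 1259. The remaining genes were below the genome's share, with 0.359% at Itgb2, 0.130% at Itgam, 0.0864% at C4b and 0.0852% at C5ar1. For positions past the threshold the genome gave 0.118%. The C1q window had 0.686%, C3 0.477%, C3ar1 0.343%, Itgb2 0.120% and Itgam 0.0652%. These counts of tested positions come from spreading row numbers evenly between listed positions, which at C4b lie up to 189527 bp from the gene, so that a local shortage of tested positions could not show. They also exceed the cytosines of reference CpGs in every member window, by the least at Itgam (108% of them) and by the most at C5ar1 (147%), so that a share of tested positions is not a share of CpGs.

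**Figure D2:**
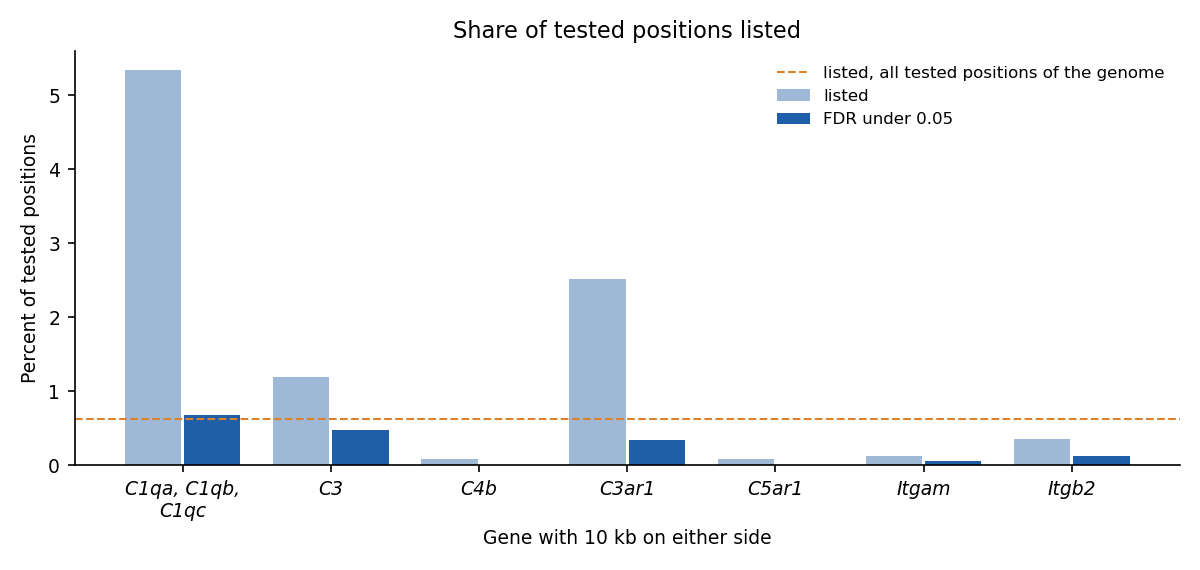
Percent of tested positions (y axis) that were listed (light bars) or had an FDR under 0.05 (dark bars) in the window of each gene with 10 kb on either side (x axis). The dashed line is the genome's share of listed positions, 0.63%; the C1q genes, C3 and C3ar1 stand above it with 5.33%, 1.19% and 2.51%.

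The C1q genes lie in the order C1qb, C1qc, C1qa on chromosome 4 and are all transcribed from the minus strand. C1qb (ENSMUSG00000036905.8) spans 136880129 to 136886187, C1qc (ENSMUSG00000036896.5) 136889804 to 136893065, and C1qa (ENSMUSG00000036887.5) 136895917 to 136898803. Their 70 listed positions formed 6 clusters, of which 9 positions passed the threshold. Within 10000 bp, C1qb and C1qc had 68 listed positions each and C1qa 51, most of them the same ones. By nearest gene, 49 belonged to C1qc, 19 to C1qb and 2 to C1qa.

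In the intron of C1qb, 13 of 15 tested positions between 136883326 and 136884235 were listed, 1952 to 2861 bp after the gene start. The authors' deposited table gives differences from -0.466 to -0.309 there, with standard errors from 0.0674 to 0.156, and 6 positions passed the threshold. All 13 were lower in the first group, and they held 8 distinct differences. The lowest FDR in this cluster, 3.49e-06, was at 136883327, with a difference of -0.420 and a standard error of 0.0674. A region covers 136883795 to 136884235, with a mean difference of -0.425 and 9 cytosines in the authors' deposited table. Of its positions 4 passed the threshold. Among these, 136883950 and 136884149 are not on a reference CpG, and the latter had the lowest FDR of the region, 0.000367. A single intron position further into the gene, 136882615, had a difference of -0.247, a standard error of 0.0472 and an FDR of 0.000490. Closer to the start, 3 intron positions 770 to 1059 bp after it differed by -0.299 to -0.264, and none passed the threshold.

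The densest block of the locus began just past the 3′ end of C1qc and ran into its last exon. Of 52 tested positions over 1331 bp (136888710 to 136890040), 49 were listed. In the authors' deposited table their differences ran from -0.375 to -0.282, with 22 distinct values. This range overlaps that of the C1qb intron cluster and does not reach its largest differences. Only 1 of the 49 passed the threshold, with an FDR of 0.0378, and this position is not on a reference CpG. The standard errors here were 0.0816 to 0.119. In this block 6 listed positions lay inside C1qc, all in its 3′ untranslated exon sequence, and the others were outside the gene. The authors called 2 regions in it. The one 367 bp past the gene (136889239 to 136889437) had a mean difference of -0.357 in the authors' deposited table and 17 cytosines, none past the threshold (lowest FDR 0.124).

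From there on the locus had no listed difference over 10302 bp. The 404 tested positions between 136890040 and 136900342 include the coding sequence and start of C1qc and the whole of C1qa, and none was listed. The next listed positions were the cytosines of a single CpG 1539 and 1540 bp upstream of the start of C1qa. Both had a deposited difference of -0.355. Their standard errors were 0.145 and 0.0432, and the latter position had the lowest FDR of all members, 1.04e-11. The FDR call at C1qa thus rested on this cytosine and on the 1 past the threshold next to C1qc. At both, at least 1 of the deposited dispersions equals the value most frequent in the table, which many positions share. Without such positions C1qa and Itgam had none past the threshold, and 6 of the 21 were left over all members. Beyond the 3′ end of C1qb, 2 positions 703 bp and more outside the gene differed by -0.252 and -0.250 without passing the threshold.

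**Figure D3:**
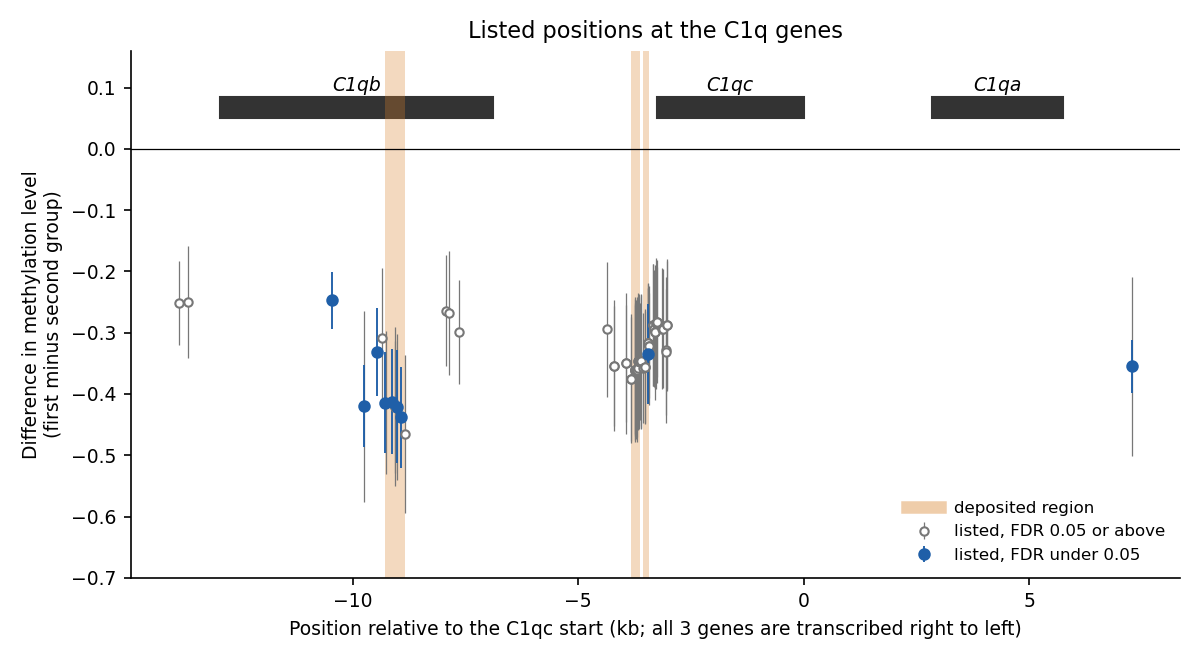
Deposited difference in methylation level (first minus second group, y axis) with the authors' standard error (bars) of the 70 listed positions at the C1q genes, by distance from the C1qc start in kb (x axis). Black boxes are genes, orange bands the 3 deposited regions, filled points have an FDR under 0.05; all points lie below 0, and none falls on C1qa or on the start of C1qc.

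C3 encodes the central protein of the cascade, on which all its activation routes converge. The gene (ENSMUSG00000024164.15) spans 57203970 to 57228136 on chromosome 17, minus strand. Its differing positions sat on the gene start. All 13 tested positions from 57228091 to 57228501, that is from 45 bp after to 365 bp before the start, were listed and higher in the first group, and 6 passed the threshold. The 8 positions around the start itself shared a deposited difference of 0.419. The 5 positions 331 to 365 bp upstream shared one of 0.425. The block thus held 2 distinct differences, with standard errors between 0.0802 and 0.196 and a lowest FDR of 0.000530. Of the 6 positions past the threshold 3, at 57228112, 57228158 and 57228470, were not on a reference CpG. A region of 87 bp (57228091 to 57228177) with 7 cytosines crosses the start, with 5 listed positions inside the gene in the untranslated exon sequence and 5 of its 7 positions past the threshold. The remaining 932 tested positions back to 57194724, which include the rest of the gene, held no listed position. A further pair lay 9246 bp past the 3′ end, with differences of 0.273 and 0.265, and did not pass the threshold.

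C3ar1 encodes the receptor for the C3a fragment and lies on chromosome 6 (ENSMUSG00000040552.8, 122847138 to 122856161, minus strand). Its 22 listed positions were all outside the gene, 7142 to 7567 bp upstream of the start, and no gene is annotated there. The 22 were consecutive in the table, so that every tested position from 122863303 to 122863728 was listed. The deposited difference was 0.489 at the end nearest to the gene and 0.279 at the far end, with standard errors of 0.0859 to 0.136. The block held 12 distinct differences, in contrast to 2 at the start of C3. The 3 positions past the threshold lay within 84 bp at the near end, and the lowest FDR was 0.000233. That value was at 122863306, which is not on a reference CpG. The others, 122863303 and 122863386, are on reference CpGs and had FDRs of 0.0180 and 0.0340. The region called there (122863303 to 122863453) had a mean difference of 0.416 and 8 cytosines in the authors' deposited table. No position of the gene body was listed.

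**Figure D4:**
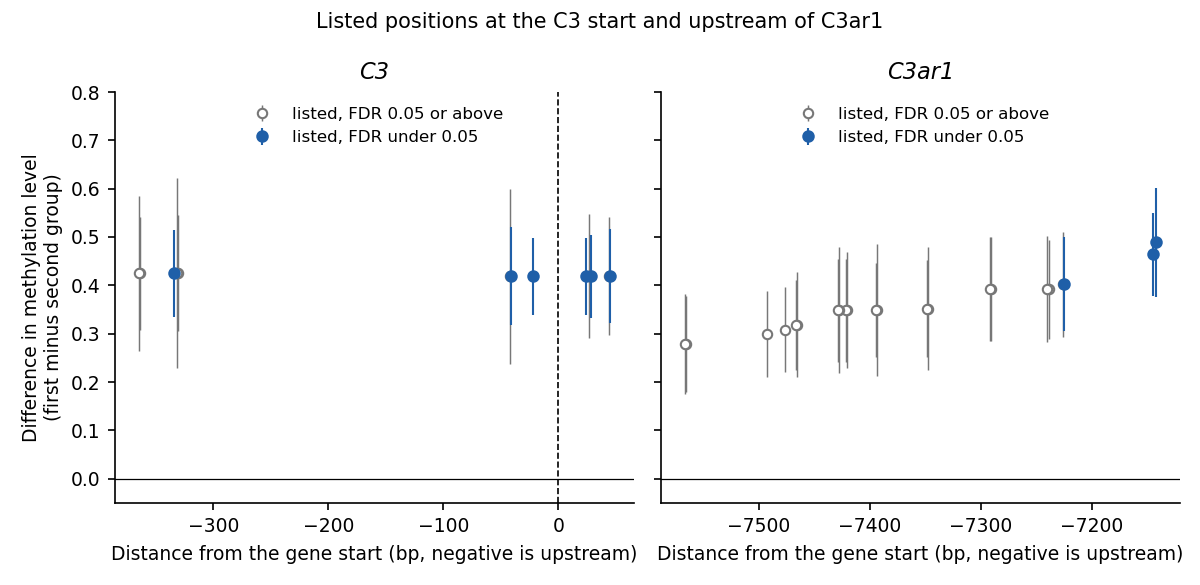
Deposited difference in methylation level (first minus second group, y axis) with the authors' standard error (bars) of the listed positions around the start of C3 and upstream of C3ar1, by distance from the gene start in bp (x axis, negative is upstream; dashed line: C3 start). Filled points have an FDR under 0.05; all 13 and 22 positions lie above 0, flat at 0.419 and 0.425 for C3 and falling from 0.489 to 0.279 away from C3ar1.

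C4b encodes the C4 protein that is cleaved before C3 (ENSMUSG00000073418.4, chromosome 17, 34728380 to 34743882, minus strand). It had 1 listed position, 34732297 in an intron, which is not on a reference CpG. Its deposited difference of -0.227 had a standard error of 0.0770 and an FDR of 0.738 and did not pass the threshold. C4b has a close copy, C4a, and how reads of the copies were assigned is not given in the sources used here, so that values at both are uncertain. C4a had no listed position.

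C5ar1, the receptor for C5a, lies on chromosome 7 (ENSMUSG00000049130.6, 16246743 to 16259540, minus strand). Its only listed position, 16240752, is 5991 bp past its 3′ end in an intron of C5ar2, the second C5a receptor gene. This position is not on a reference CpG. It differed by 0.216 in the authors' deposited table, with a standard error of 0.0667 and an FDR of 0.407. No position inside C5ar1 was listed.

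The receptor 3 genes had few listed positions, with opposite signs. Itgam (ENSMUSG00000030786.18, chromosome 7, 128062640 to 128118491, plus strand) encodes CD11b, a common surface marker of microglia. Its 2 listed positions are the cytosines of a single CpG in an intron, 31224 and 31225 bp after the start, where the read-through model Gm49368 overlaps the gene. Both had a deposited difference of -0.352. One cytosine had a standard error of 0.0830 and an FDR of 0.0239, and the other a standard error of 0.148 and no pass. Itgb2 (ENSMUSG00000000290.13, chromosome 10, 77530252 to 77565708, plus strand) encodes CD18, which pairs with CD11b and other alpha chains. Its 6 listed positions fell in 3 separate clusters. In an intron, 3 positions 5460 to 5502 bp after the start shared a deposited difference of 0.318, and 1 of them passed the threshold (standard error 0.0593, FDR 0.000274). A single intron position 16421 bp after the start had a difference of 0.218, a standard error of 0.0512 and an FDR of 0.0232. The other 2 lay 9203 bp and more upstream, with differences of 0.268 and 0.272, and did not pass.

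The 5 regions and the promoters were searched on both strands for binding motifs of factors that act in myeloid cells. The composite element of ETS and IRF factors (GGAA and GAAA with any 2 bases between them), the IRF repeat (GAAA, any 2 bases, GAAA), the AP-1 motif (TGANTCA) and the PU.1 motif (GAGGAAGT) were each absent from the 300 bp centred on every one of the 5 regions. In windows of that length over all 3389 regions the shares were 11.2%, 5.28%, 12.4% and 3.48%. With only 5 regions, absence from all of them cannot show a difference from these shares. The windows of the 2 regions past C1qc also overlap. The composite element was present in 21.3% of the 1581 regions with a negative difference and in 2.38% of the 1808 with a positive one. RefSeq promoters of 300 bases (250 before the start, GRCm38.p6) were found for 6 members: C1qb, C1qc, C3, C3ar1, C5ar1 and Itgam. Of the 6, C1qc held the PU.1 motif and C3ar1 the AP-1 motif, against 3.20% and 7.81% of 32851 promoters in the table. The composite element and the IRF repeat were in none of the 6 and in 2.72% and 3.44% of all. The promoter of C3 held 8 listed positions and the other 5 promoters none. A motif absent from these windows says nothing of binding elsewhere.

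A wider list of 41 complement genes was counted in the same way. A listed position was present at 27 (65.9%), a position past the threshold at 10 (24.4%) and a region at 1 (2.44%), near or below the shares of all genes given above. None of the alternative pathway genes Cfb, Cfd and Cfp had a listed position. The single region lay in an intron of C1qbp, which encodes a mitochondrial protein also known as a binder of C1q (chromosome 11, 70980403 to 70980511). Its mean difference in the authors' deposited table was -0.356, and none of its 5 positions passed the threshold.

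Among initiators, Colec10 and Colec11, collectins of the lectin pathway, went in opposite directions. Colec10 had 3 positions past the threshold of 14 listed, all higher in the first group with a median difference of 0.296, and both listed positions of Colec11 passed with -0.225. Among terminal components, C7 and C9 had 1 position past the threshold each, lower at C7 and higher at C9. Among regulators, Cd46 and Cr1l shared 1 that was higher (difference 0.273, FDR 0.000180). Csmd1, a gene of over 1 Mb (1643050 bp), had 169 listed positions, of which 24 that were higher and 9 that were lower passed. Its listed share of tested positions was 0.911%. Among receptors, 1 position each passed at Vsig4, a C3 fragment receptor of macrophages, and at Itgal, an alpha chain partner of CD18, both higher in the first group. Itgax, another partner of CD18 beside Itgam, had no listed position. By direction, 7 of the 41 had a position past the threshold that was higher and 4 one that was lower, Csmd1 being in both counts.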

How the data were processed

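Whole-genome bisulfite sequencing was done on 2 WT and 2 IRF8KO samples of sorted microglia, using a Zymo Pico Methyl-Seq kit with 50 ng of DNA from 40000 cells, 8 PCR cycles and paired reads of 75 bp, per the labels' protocols. Trim Galore and Bismark with build mm10 are named in the submitters' processing notes. The tool, smoothing and coverage limits behind the comparison between groups were not given in the sources used here. Per the file headers, the authors' site table gives the difference in methylation level between numbered groups, its standard error, a test statistic as a score, dispersions, a p-value with its FDR, and a posterior probability as a fraction. The authors' region table gives a mean difference, the count of cytosines and an area score per region. In both tables, 4 columns hold levels of the numbered groups. They were read only to see how the difference is coded, because no header ties them to a genotype. Read depth is unknown.

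Of 269406 listed positions, 78.0% lay on a CpG of GRCm38 (1.71% after a shift of 100 bp), and coordinates are 1-based on that build. Genes were taken from GENCODE M21. Row numbers follow genome order up to 42734461 and were used to count tested positions, interpolated between listed ones. The interpolation was checked on simulated positions placed at random. That check does not cover listed positions that lie in clusters with wide gaps between them, as here. No test was added: thresholds are the authors' deposited FDR, and with 2 against 2 samples an exact permutation test cannot go below 0.333 (two-sided). P-values may reflect technical spread only. All 9 members were described, while 1 sequence and 1 gene of the wider list are not reported here. The members, the wider list and the motifs were chosen with earlier results of these data known. Alternatives were other windows, FDR limits, region sizes, reference CpGs only, dispersions, clusters and gene models. Python 3.11.15, pandas 2.3.3 and numpy 2.4.6 were used. Per-sample columns left unused numbered 0.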

Additional observations from a re-analysis of the deposited data

How the results depend on the processing

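Of 37 alternatives, 27 left the count within 1.5 times its value or the share within its 95% Clopper-Pearson interval (counting error only). Inside gene bodies alone, 4 members in place of 7 had a position past the threshold and 2 in place of 5 a region, with 35 in place of 117 listed positions (over all genes 20.1% and 6.72%). Within 5000 bp, 3 members had a region (7.92% of all genes). Within 50000 bp there were 204 listed positions, and the regions added were 1 in an intron of Dhx34 (41887 bp from C5ar1) and 1 over Gm19366 (49230 bp from Itgam). With regions of at least 10 cytosines 3 members were left (5.14% of all genes), and with the C1q genes as 1 locus 3 places. Listed positions fell to 15 as clusters and to 75 with positions 1 bp apart counted once. The share higher in the first group, 37.6%, reversed to 52.4% among positions with an FDR under 0.05, a setting under which the 70 C1q positions are reduced to 9. The 1-locus and 1 bp settings, and one without the most frequent dispersions, were chosen after seeing the data. The last left 5 members with a position past the threshold (10.6% of all genes), without C1qa and Itgam. No paired analysis was possible because neither deposited table has columns for single samples. For that reason the replicate block, leaving out each replicate and the coverage minimum were not run.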
